A study of Saccharomyces cerevisiae with 8 samples.

Results

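The 10 genes described here encode the yeast enzymes that make S-adenosylmethionine, clear its by-product S-adenosylhomocysteine, and return 5′-methylthioadenosine to methionine. They were taken by systematic name, with earlier results of these data known but no cut on measured values, from a table of 5545 genes. They are SAM1 (YLR180W), SAM2 (YDR502C), SAH1 (YER043C), SAM4 (YPL273W), MEU1 (YLR017W), MRI1 (YPR118W), MDE1 (YJR024C), UTR4 (YEL038W), ADI1 (YMR009W) and ARO8 (YGL202W). All 10 were listed in the table and all 10 passed the filter on low counts.

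Ribosome-protected fragments (footprints) and total RNA were read in Saccharomyces cerevisiae cells of mating type MATa that carry ura3-52 and leu2, with LEU2 in place of both SPE1 (spelled spel in the labels) and SPE2. Every group shared these alleles, so none of the libraries came from cells that could make their own polyamines. Cultures at 30 °C in SD medium received no spermidine (0 µM) or 10 µM spermidine and were collected at an optical density of 0.6 to 0.7, after inoculation at 0.025. The 4 groups were footprints at 0 µM, footprints at 10 µM, RNA at 0 µM and RNA at 10 µM, each with 2 libraries. The study addressed how translation responds to low and high polyamine levels.

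S-adenosylmethionine is the methyl donor of most cellular methylation reactions, which leave S-adenosylhomocysteine behind. It also feeds polyamine synthesis: the SPE2 product removes its carboxyl group, and spermidine and spermine synthases then transfer an aminopropyl group and release 5′-methylthioadenosine. The salvage route splits that by-product into adenine and a ribose phosphate and rebuilds methionine from the ribose carbons and the methylthio group. In a strain without SPE2, this route from S-adenosylmethionine to methylthioadenosine is cut at the decarboxylation step.

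Gene counts summed to 1786419 to 2884632 reads per RNA library and to 3324344 to 7089928 reads per footprint library. Levels are given as CPM, counts scaled to each library's composition-adjusted total, so each change is relative to the typical gene. The deleted genes stayed low: SPE1 had 4 to 15 reads and SPE2 had 3 to 62 reads in any library. Whether the 2 libraries of a group stem from different cultures is not said in the labels. The p-values therefore reflect how these libraries vary, which may be technical. Groups said not to overlap are only described. For 2 libraries against 2, an exact two-sided permutation p cannot go below 0.333. The share of all genes without overlap was not counted. Counts from whole cultures cannot tell fewer expressing cells from less RNA per cell.

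With spermidine, SAM2 and SAH1 rose in both footprints and RNA, SAM1 fell in both, and SAM4 fell in footprints. In footprints 2 of the 10 genes rose and 2 fell (edgeR's quasi-likelihood F test at a p below 0.05 after Benjamini-Hochberg adjustment), where 18.7% of the 5488 genes tested rose and 19.8% fell. In RNA 2 rose and 1 fell, where 8.45% of genes rose and 13.5% fell. The median log2 change of the 10 genes was 0.02 in footprints and -0.06 in RNA, against -0.02 and 0.0017 over all genes tested. The 10 genes together took 0.747% and 0.795% of all footprint reads at 0 µM and 1.12% and 1.08% at 10 µM. SAM2 and SAH1 held most of these reads, so the higher share is not a rise of all 10 genes. In footprint replicate 1 at 0 µM they had 11929 and 10891 of the 37662 reads. In footprint replicate 1 at 10 µM they had 15037 and 13689 of 37190.

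**Figure D1:**
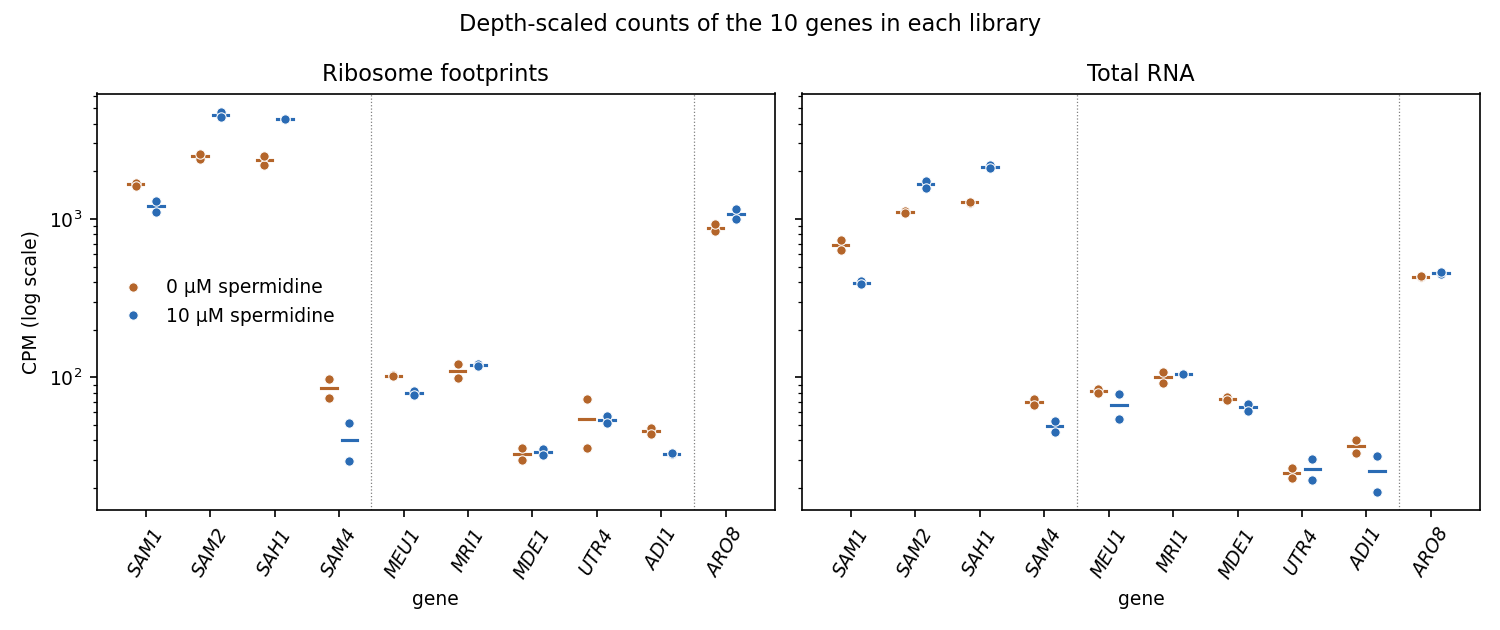
Depth-scaled counts (CPM, log scale) of each gene in each library, footprints on the left and total RNA on the right; points are libraries (orange at 0 µM, blue at 10 µM), bars are means of 2, and dotted lines separate the cycle genes, the salvage enzymes and the transaminase ARO8. SAM2 and SAH1 lie higher at 10 µM than at 0 µM in both assays, SAM1 lies lower, and the salvage genes from MEU1 to ADI1 lie between 18.98 and 121.9 CPM in every library.

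SAM1 and SAM2 encode the 2 S-adenosylmethionine synthetases, which join methionine to ATP, and they moved in opposite directions. SAM2 (chromosome IV, 1453310 to 1454464 in the R64 assembly) had 2403 and 2590 CPM in the footprint libraries at 0 µM and 4711 and 4429 CPM at 10 µM. Both libraries with spermidine lay well above both without. Its footprints rose 1.83-fold, a log2 change of 0.87 (SE 0.09, edgeR's adjusted p = 0.00014). Its RNA held 1129 and 1096 CPM at 0 µM and 1751 and 1578 CPM at 10 µM, again without overlap. That was a log2 change of 0.58 (SE 0.10, edgeR's adjusted p = 0.0024), and both SAM2 calls held in all 15 alternative settings that kept the gene separate.

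SAM1 (chromosome XII, 515262 to 516410) had 1696 and 1610 CPM in footprints at 0 µM and 1301 and 1105 CPM at 10 µM. Its RNA went from 740 and 633 CPM to 405 and 387 CPM. In both assays the spermidine libraries were the lower ones and the groups did not overlap. RNA fell by 0.79 on the log2 scale (SE 0.12, edgeR's adjusted p = 0.0015), and only 4.68% of genes tested had a lower RNA change. Footprints fell by 0.46 (SE 0.11, edgeR's adjusted p = 0.011). The footprint call was lost without footprint replicate 1 at 0 µM or without footprint replicate 2 at 10 µM (largest adjusted p = 0.096), and its estimate moved between -0.58 and -0.35 as single libraries were left out.

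The division of reads between the pair does not depend on how libraries are scaled to each other. There were 1.42 and 1.61 SAM2 footprint reads per SAM1 read at 0 µM and 3.62 and 4.01 at 10 µM. In RNA the ratios were 1.53 and 1.73 at 0 µM and 4.32 and 4.08 at 10 µM. SAM2 thus held 58.6% to 61.7% of the pair's footprint reads at 0 µM and 78.4% to 80.0% at 10 µM. The ratio was 2.52-fold higher with spermidine in footprints and 2.58-fold higher in RNA. All spermidine libraries lay above all others in each assay, but 2 libraries against 2 cannot give an exact two-sided permutation p below 0.333, which is the value found in each assay.

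The 2 genes are close paralogs whose sequences were not compared here, and how any read that matches both was assigned is not given in the sources used here, so the sum of the pair was also tested. Added together, the pair had 4150 ± 71.2 CPM in footprints at 0 µM and 5773 ± 338 CPM at 10 µM (SD, n = 2). The sum rose by a log2 change of 0.48 in footprints (SE 0.09, edgeR's adjusted p = 0.0037). In RNA it went from 1799 ± 98.8 to 2060 ± 136 CPM without overlap, a log2 difference of 0.20 that missed the threshold (SE 0.10, edgeR's adjusted p = 0.18).

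**Figure D2:**
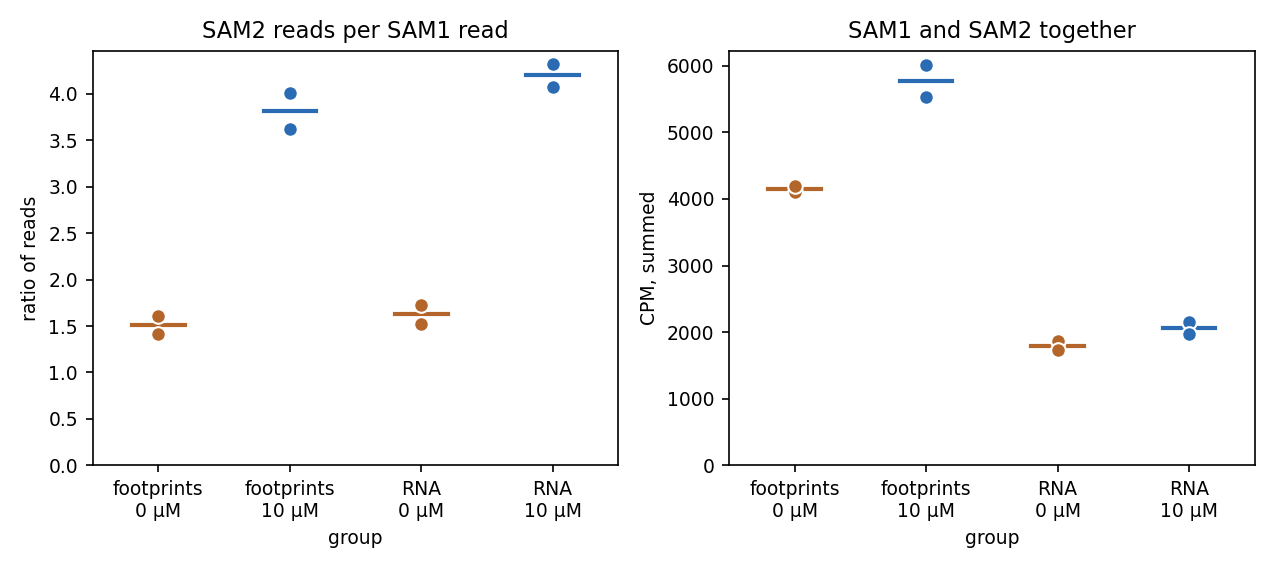
Left, SAM2 reads divided by SAM1 reads in each library; right, the CPM of both genes added together; points are libraries and bars are means of 2. The ratio lies between 1.42 and 1.73 in the 4 libraries at 0 µM and between 3.62 and 4.32 in the 4 at 10 µM, while the RNA sums run from 1729 CPM at 0 µM to 2156 CPM at 10 µM.

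SAH1 encodes S-adenosylhomocysteine hydrolase, which splits the by-product of methylation into adenosine and homocysteine. It lies on chromosome V, 235770 to 237119. Its footprints stood at 2194 and 2493 CPM at 0 µM and at 4289 and 4283 CPM at 10 µM. Its RNA stood at 1267 and 1288 CPM at 0 µM and at 2193 and 2097 CPM at 10 µM. The groups did not overlap in either assay. Footprints rose by a log2 change of 0.87 (SE 0.09, edgeR's adjusted p = 0.00013) and RNA by 0.75 (SE 0.09, edgeR's adjusted p = 0.00070). The RNA change was above that of 95.2% of genes tested, and both calls held in all 16 alternative settings.

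SAM4 encodes a homocysteine methyltransferase that takes the methyl group of S-adenosylmethionine to remake methionine. It lies on chromosome XVI, 25087 to 26064. Its footprints stood at 97.9 and 73.6 CPM at 0 µM and at 29.8 and 51.1 CPM at 10 µM. The libraries of each group differed widely, but the groups did not overlap. Footprints fell 2.08-fold, a log2 change of -1.06 (SE 0.22, edgeR's adjusted p = 0.0049), which 3.52% of genes tested went below. The call held in all 16 alternative settings, and its estimate moved between -1.52 and -0.74 as single libraries were left out. SAM4 RNA was 72.8 and 67.3 CPM at 0 µM and 45.4 and 52.8 CPM at 10 µM, without overlap, but its log2 difference of -0.51 did not pass the test (SE 0.25, edgeR's adjusted p = 0.17). With each assay fitted alone the RNA fall was called (adjusted p = 0.039).

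No call was made for any of the 5 methylthioadenosine salvage enzymes or for ARO8, the last step, in any of the 3 comparisons. MEU1 encodes methylthioadenosine phosphorylase, which opens the route. Its footprints were 103 and 102 CPM at 0 µM and 81.5 and 77.3 CPM at 10 µM. The spermidine libraries were the lower ones and the groups did not overlap, but the log2 difference of -0.37 missed the threshold (95% interval -0.68 to -0.06, edgeR's adjusted p = 0.061). MEU1 RNA was 84.5 and 79.3 CPM against 54.84 and 77.98 CPM, a log2 difference of -0.30 (edgeR's adjusted p = 0.21), which rests on single libraries. It was -0.58 and called without RNA replicate 2 at 10 µM (adjusted p = 0.037), and -0.07 without RNA replicate 1 at 10 µM (adjusted p = 0.79).

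MRI1 encodes the isomerase of methylthioribose-1-phosphate and MDE1 the dehydratase that follows it. MRI1 footprints lay between 99.1 and 121.9 CPM in the 4 footprint libraries, and its groups overlapped in both assays. Its log2 difference was 0.12 in footprints (95% interval -0.16 to 0.40) and 0.07 in RNA (-0.24 to 0.37). MDE1 footprints lay between 29.9 and 35.9 CPM, with overlapping groups and a log2 difference of 0.04 (95% interval -0.27 to 0.35). MDE1 RNA was 74.7 and 72.1 CPM at 0 µM and 67.9 and 61.6 CPM at 10 µM. Those groups did not overlap, and the log2 difference of -0.18 did not pass the test (edgeR's adjusted p = 0.39).

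UTR4 encodes the enolase-phosphatase of the route and ADI1 the acireductone dioxygenase after it. UTR4 footprints were 73.1 and 35.9 CPM at 0 µM, so that its untreated libraries lay on either side of the 57.0 and 51.1 CPM at 10 µM. Its log2 difference of 0.0045 had a 95% interval of -0.61 to 0.62, and it was 0.59 without footprint replicate 1 at 0 µM, where it was called (adjusted p = 0.042), and -0.41 without footprint replicate 2 at 0 µM. ADI1 footprints were 47.9 and 43.7 CPM at 0 µM and 32.6 and 33.0 CPM at 10 µM. The groups did not overlap, and the log2 difference of -0.48 missed the threshold (95% interval -0.89 to -0.07, edgeR's adjusted p = 0.066). ADI1 RNA, at 37 to 103 reads per library, differed by -0.53 on the log2 scale (edgeR's adjusted p = 0.13). It was -0.95 and called without RNA replicate 1 at 10 µM (adjusted p = 0.030), and -0.20 without RNA replicate 2 at 10 µM (adjusted p = 0.60).

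ARO8 encodes an aromatic aminotransferase that also acts on the ketoacid at the end of the salvage route, yielding methionine. Its footprints were 837 and 924 CPM at 0 µM and 993 and 1157 CPM at 10 µM, higher with spermidine and without overlap. The log2 difference of 0.29 just missed the threshold (95% interval 0.06 to 0.52, edgeR's adjusted p = 0.051). ARO8 RNA was 428 and 437 CPM against 452 and 462 CPM, a log2 difference of 0.08 (edgeR's adjusted p = 0.66). The footprint results of MEU1, ADI1 and ARO8 lay close to the threshold: they were called in 6, 5 and 7 of 16 alternative settings, with adjusted p from 0.022 to 0.22, from 0.021 to 0.20 and from 0.014 to 0.34.

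**Figure D3:**
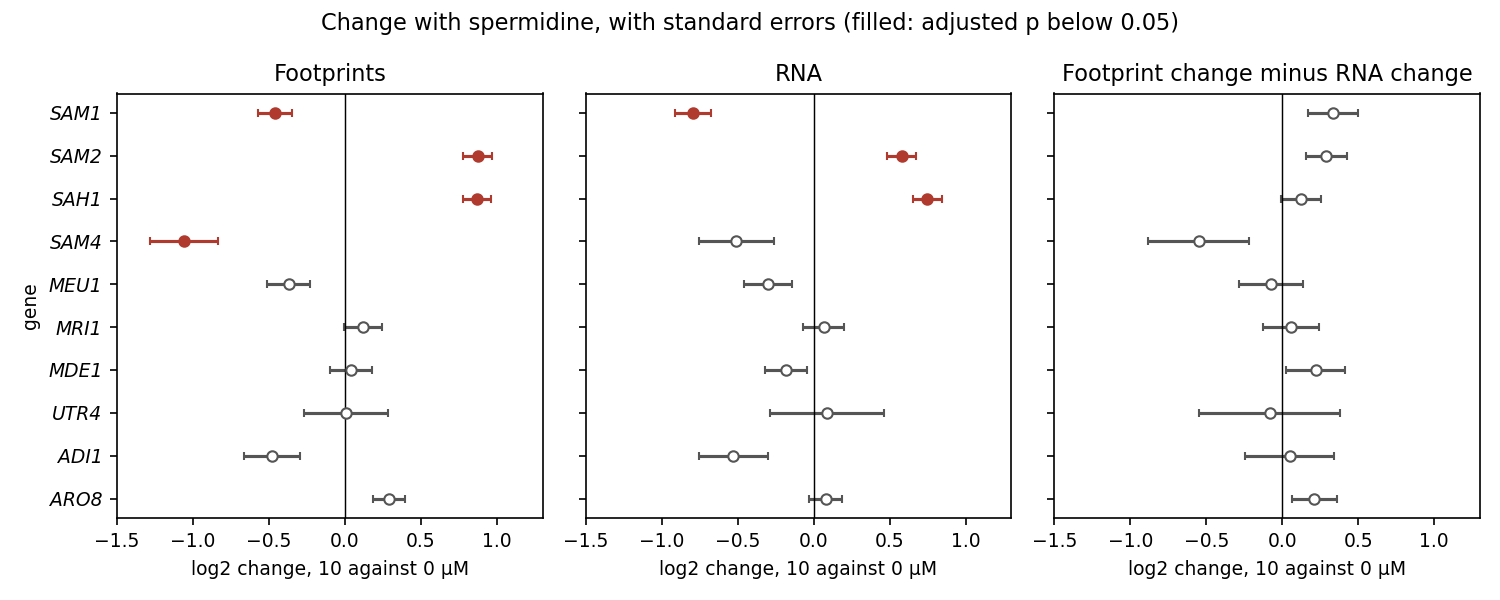
Log2 change of each gene at 10 against 0 µM in footprints, in RNA and in the difference between them; points are estimates, bars are standard errors, and filled points passed an adjusted p of 0.05. SAM1 (-0.46 and -0.79), SAM2 (0.87 and 0.58) and SAH1 (0.87 and 0.75) are filled in footprints and RNA, SAM4 (-1.06) in footprints, and none of the 10 in the right panel.

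The change in translational efficiency, the footprint change minus the RNA change in 1 model, was not called for any of the 10 genes; 0.893% of genes tested were called higher and 0.893% lower. The count was also 0 with DESeq2 and limma voom, and the number of the 10 genes with an unadjusted p below 0.05 was 0 in the edgeR test and 0 to 2 over the alternatives, with 1 under limma voom and 2 under the replicate block. SAM1 and SAM2 had the most positive differences, 0.33 (95% interval -0.03 to 0.70, edgeR's adjusted p = 0.31) and 0.29 (-0.01 to 0.59, edgeR's adjusted p = 0.28). SAM4 had the most negative, -0.55, with a wide interval of -1.30 to 0.20 (edgeR's adjusted p = 0.42). It was -1.01 without footprint replicate 2 at 10 µM and -0.23 without footprint replicate 1 at 10 µM, and was not called in either. SAH1 differed by 0.12 (95% interval -0.17 to 0.42). The other 6 genes ran from -0.08 in UTR4 to 0.22 in MDE1.

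Footprints per RNA read varied more between the genes than between the conditions. The ratio of mean footprint CPM to mean RNA CPM at 0 µM was 2.41 in SAM1, 2.24 in SAM2, 2.03 in ARO8 and 1.84 in SAH1. The SAM1 ratio was above that of 97.7% of genes tested and the SAH1 ratio above 91.4%. MDE1 had the lowest ratio of the 10, 0.448 at 0 µM and 0.520 at 10 µM, with only 16.2% and 21.2% of genes below it. UTR4 had 2.19, but its ratio ran from 1.35 to 3.15 depending on which footprint and RNA libraries were divided. The SAM4 ratio was 1.22 at 0 µM and 0.823 at 10 µM, with ranges of 1.01 to 1.45 and 0.563 to 1.13 that overlapped.

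Levels compared per kilobase of coding length fell into a high and a low tier. In footprints at 0 µM, SAM2 had 2161 ± 114 CPM per kilobase, SAH1 1736 ± 157, SAM1 1439 ± 52.8 and ARO8 586 ± 41.0 (SD, n = 2), each separated from the next. The other 6 lay between 44.7 in MDE1 and 101 in MEU1, where MRI1, SAM4, ADI1 and UTR4 overlapped their neighbours in the order. In footprints at 10 µM the first 4 kept their order, with SAM2 at 3957 ± 172 and SAM1 at 1047 ± 121, and SAM4 came last at 41.4 ± 15.5, overlapping MDE1 at 45.8 ± 2.69. In RNA at 0 µM SAM2 (963 ± 20.3) and SAH1 (946 ± 10.9) overlapped, while at 10 µM SAH1 (1589 ± 50.3) lay above SAM2 (1441 ± 106) in both libraries. MDE1 followed ARO8 in RNA per kilobase in both conditions (99.9 ± 2.54 and 88.1 ± 6.10) although it was last in footprints at 0 µM. In RNA at 10 µM it overlapped MRI1 (84.8 ± 0.404), the next in the order.

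By position, none of the 10 genes overlapped another annotated gene in R64. SAM4 lies 386 bases from SAM3 (YPL274W), its nearest neighbour. SAM3 encodes the S-adenosylmethionine permease of the plasma membrane. SAM3 RNA fell, with a log2 change of -0.50 (edgeR's adjusted p = 0.011), beside the uncalled -0.51 of SAM4. SAM3 footprints went from 159 ± 2.87 to 187 ± 0.492 CPM, a log2 difference of 0.24 that did not pass the test (edgeR's adjusted p = 0.11), beside the -1.06 of SAM4. SAM3 efficiency was called higher, by 0.74 (edgeR's adjusted p = 0.048), a call lost in 10 of 15 alternative settings (largest adjusted p = 0.13). The difference between the 2 genes was not tested.

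MHT1 encodes the second homocysteine methyltransferase, which uses S-methylmethionine, and MMP1 the S-methylmethionine permease. MHT1 differed by 0.49 in footprints and 0.59 in RNA, neither called (edgeR's adjusted p = 0.095 and 0.14). MMP1 fell in both, with log2 changes of -1.06 in footprints and -0.97 in RNA (edgeR's adjusted p = 0.0016 and 0.0071), the RNA call being lost without RNA replicate 2 at 10 µM (adjusted p = 0.064). SAM3 RNA lost its call without RNA replicate 1 at either concentration (largest adjusted p = 0.069). Of the 3 carrier genes, which include the mitochondrial carrier gene PET8, 1 fell in footprints and 2 in RNA, where 19.8% and 13.5% of all genes tested fell.

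**Figure D4:**
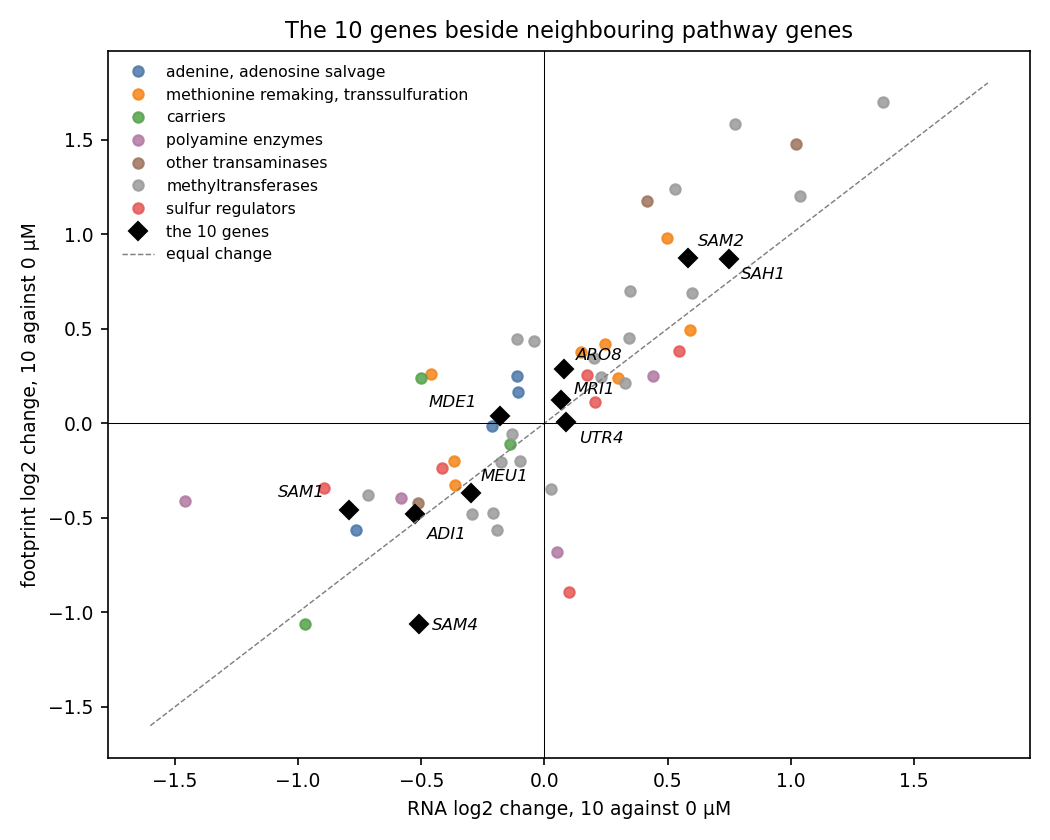
RNA log2 change (x axis) against footprint log2 change (y axis) at 10 against 0 µM, with the 10 genes as labelled black diamonds and genes of 7 neighbouring lists as coloured points; the dashed line marks equal change. SAM2 and SAH1 lie at upper right, SAM1, ADI1, MEU1 and SAM4 at lower left, and MRI1, MDE1 and UTR4 near the origin.

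Around the cycle, the list of methionine remaking and transsulfuration had 2 of 8 genes higher and 1 lower in footprints, and 1 higher and 2 lower in RNA. Over all genes tested 18.7% were higher and 19.8% lower in footprints, and 8.45% and 13.5% in RNA, so the footprint counts lie near the background. MET6, the methionine synthase that returns homocysteine to methionine, rose from 5779 ± 140 to 11388 ± 894 CPM in footprints (log2 change 0.98, edgeR's adjusted p = 0.00011). Its RNA rose by 0.50 (edgeR's adjusted p = 0.0068), a call lost without RNA replicate 1 at 10 µM (adjusted p = 0.065). MET13, which supplies the methyl group as methyltetrahydrofolate, rose by 0.42 in footprints, while its RNA difference of 0.24 was not called (edgeR's adjusted p = 0.12). MET12 of the same list leaned the other way, by -0.20 in footprints and -0.37 in RNA, neither called (edgeR's adjusted p = 0.15 and 0.055). CYS4, which draws homocysteine off towards cysteine, fell in footprints (-0.33) and RNA (-0.36). CYS3 fell in RNA (-0.46), but its footprints leaned the other way, by 0.26, and were not called (edgeR's adjusted p = 0.086). Its efficiency difference of 0.72 just missed the threshold (edgeR's adjusted p = 0.055). The MET13, CYS4 and CYS3 calls were each lost in 2 to 5 of 16 alternative settings (largest adjusted p = 0.11). The list's median log2 change was 0.32 in footprints and 0.20 in RNA.

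Adenosine and adenine are the other products of these reactions, and of 4 genes that reuse them 1 fell in each assay, against 19.8% of all genes in footprints and 13.5% in RNA. APT1, adenine phosphoribosyltransferase, fell from 147 ± 1.13 to 99.0 ± 13.3 CPM in footprints (log2 change -0.56, edgeR's adjusted p = 0.0063) and in RNA (-0.77, edgeR's adjusted p = 0.0031). The footprint call was lost without footprint replicate 1 at 10 µM (adjusted p = 0.054). The other 3, ADO1, AAH1 and AMD1, differed by -0.01 to 0.25 in footprints. ADO1, the adenosine kinase that acts on the adenosine from SAH1, went from 867 ± 32.2 to 1032 ± 16.5 CPM and was not called (edgeR's adjusted p = 0.059).

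The other transaminases that can replace ARO8 in the last salvage step did not move together: of 3, 2 rose and 1 fell in footprints (18.7% and 19.8% of all genes), and 1 rose and 1 fell in RNA (8.45% and 13.5%). BAT2, the cytosolic branched-chain transaminase, rose from 106 ± 8.53 to 294 ± 4.65 CPM in footprints (log2 change 1.47, edgeR's adjusted p = 2.0e-05) and by 1.02 in RNA (edgeR's adjusted p = 0.00054). BAT1, its mitochondrial counterpart, fell in footprints (-0.42) and RNA (-0.51, edgeR's adjusted p = 0.0082 and 0.0061). ARO9, the second aromatic aminotransferase, rose in footprints from 4.31 ± 0.458 to 9.54 ± 2.42 CPM (log2 change 1.17, edgeR's adjusted p = 0.0069). The BAT1 footprint call was lost when either footprint replicate 2 at 0 µM or footprint replicate 1 at 10 µM was left out, and the ARO9 call without footprint replicate 2 at 10 µM (largest adjusted p = 0.11 and 0.085).

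A list of 20 methyltransferases that use S-adenosylmethionine was drawn chiefly from those of lipids, cofactors, proteins and the mRNA cap. Methyltransferases outside it, such as those of rRNA and tRNA, were not counted. Among the 20, 8 rose and 5 fell in footprints, and 5 rose and 1 fell in RNA. Over all genes tested 18.7% rose and 19.8% fell in footprints, and 8.45% rose and 13.5% fell in RNA, so the 5 that fell in footprints lie near the background share. The median log2 change was 0.29 in footprints and 0.12 in RNA. Of the 5 that rose in both assays, 3 make lipids. ERG6, which methylates sterols, changed by 1.70 in footprints and 1.37 in RNA, and OPI3 of phosphatidylcholine synthesis by 1.203 and 1.04. CHO2, which starts the same phosphatidylcholine route, changed by 0.45 and 0.34. Its footprint call was lost without replicate 1 at either concentration and its RNA call in 8 of 16 alternative settings (largest adjusted p = 0.066 and 0.15). The others that rose in both were TMT1 (1.58 and 0.77), which methylates trans-aconitate, and PPM1 (0.69 and 0.60), which methylates a protein phosphatase. CTM1 (1.24), COQ5 (0.70) and TAE1 (0.44), which act on cytochrome c, ubiquinone precursors and protein N-termini, rose in footprints. The footprint calls of ERG6, OPI3, TMT1, CTM1 and COQ5 held in all 16 alternative settings, while those of PPM1 and TAE1 were lost in 1 and 5 and the RNA calls of TMT1 and PPM1 in 4 and 9. MET1 (-0.48), DPH5 (-0.35) and RMT2 (-0.38), of siroheme synthesis, diphthamide synthesis and protein arginine methylation, fell in footprints, calls lost in 7, 5 and 10 of 16 settings. RMT2 also fell in RNA (-0.71), a call lost in 4. The histone methyltransferase genes SET1 and SET2 fell in footprints, with log2 changes of -0.56 and -0.47. Without footprint replicate 2 at 10 µM both calls were lost (adjusted p = 0.051 for SET1), and that of SET2 was lost too without footprint replicate 2 at 0 µM and under DESeq2 (largest adjusted p = 0.15). Over the alternatives, 1 to 5 fell in footprints and 2 to 7 rose in RNA.

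The 4 polyamine synthesis genes counted include SPE1 and SPE2, which are deleted in every group. Of the 4, 1 fell in footprints and 2 fell in RNA, where 19.8% and 13.5% of all genes fell. SPE3, the spermidine synthase that releases methylthioadenosine, fell in footprints (-0.39, edgeR's adjusted p = 0.012) and RNA (-0.58, edgeR's adjusted p = 0.0037). The footprint call was lost in 3 single-library omissions (largest adjusted p = 0.10). The other RNA call was the residual signal of the deleted SPE2 (-1.46), lost in 8 of the 15 alternative settings with an adjusted p. Its estimate ran from -2.55 to -0.86 as single libraries were left out. Of 6 transcriptional regulators of sulfur genes, MET31 fell in footprints (-0.89, lost with DESeq2, adjusted p = 0.092), and MET32 (-0.90) and MET30 (-0.42) fell in RNA, against 19.8% and 13.5% of all genes, both RNA calls being lost in 14 of 16 alternative settings (largest adjusted p = 0.29 and 0.35). MET4, which encodes the activator of the sulfur genes, differed by 0.26 in footprints and 0.17 in RNA and was not called.

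After centring within assay, the genes whose log2 CPM ran closest to SAM2 over the 8 libraries were YNR066C, YBR085C-A and SER33 (each with a Pearson r of 0.997), and for SAM1 they were PGA3, TOH1 and YOP1 (r from 0.991 to 0.995). The libraries fall into 2 conditions, so these values mostly restate a difference in the same direction, and they are given as a description.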

How the data were processed

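The authors' deposited table holds raw read counts per gene for 8 libraries. Per the submitters' processing notes, the genome was R64 (sacCer3) and the tools included Bowtie 1.1.2 and 1.2.2, edgeR and cutadapt, whose roles are not stated. Not given in the sources used here are the counted part of a gene, the use of strand and the handling of reads that match several genes. The smallest count in every library was 1. Symbols and R64 coordinates came from a RefSeq gene table, which matched 5543 of 5545 IDs.

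Groups were read from the sample titles. Genes passing filterByExpr of edgeR 4.0.16 under R 4.3.3 (minimum count 10, minimum total 15) numbered 5488, and libraries were scaled by the trimmed mean of M values. A quasi-likelihood model with 4 group means was fitted to all 8 libraries (4 residual degrees of freedom) and gave 3 contrasts: footprints, RNA and their difference. Calls are at a Benjamini-Hochberg adjusted p below 0.05 over all genes within a contrast. Standard errors are the log2 change over the root of F. Intervals at 95% use the model's total degrees of freedom, which add those borrowed across genes to the 4 residual ones. They are narrower than the residual ones alone would give. The procedure was tested on simulated data in which 200 genes per comparison had a log2 change of 1 in either direction. Of these, 92% were recovered in footprints, 80.5% in RNA and 63% in efficiency, so efficiency changes were missed most often. The simulated spread was set in advance, not fitted to these libraries. Alternatives used DESeq2 1.42.0, limma 3.58.1 voom, other scalings, no filter, each assay alone, a replicate block, and each library left out, which leaves 1 library assumed to vary like the other groups.

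The genes and neighbouring lists were chosen with earlier results of these data known. The text names all 10 genes, and from the lists those called in at least 1 contrast. ADO1, AAH1, AMD1, MHT1, MET12, PET8 and MET4 were added as context after their values were seen.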

Additional observations from a re-analysis of the deposited data

How the results depend on the processing

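The numbers of the 10 genes called were 4 in footprints, 3 in RNA and 0 in efficiency. Footprint counts became 7 with limma voom, with each assay alone and with the replicate block, each time through MEU1, ADI1 and ARO8, and ran from 3 to 6 when 1 library was left out. The RNA count became 1 with SAM1 and SAM2 summed, since both calls of the pair are then replaced by a sum that was not called, and ran from 3 to 4 over single omissions. The efficiency count stayed 0 in all 15 settings. The replicate numbers are not stated to pair libraries: deviations of same-numbered libraries correlated at 0.23 between footprint groups and 0.17 between RNA groups.

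Signs turned only for differences that were not called. With library totals, MDE1 (-0.00452) and UTR4 (-0.0387) turned in footprints, and MRI1 (-0.029) and ADI1 (-0.0379) in efficiency; with limma voom, UTR4 efficiency was 0.0255. Over single omissions footprints ranged from -0.015 to 0.30 in MRI1, -0.069 to 0.17 in MDE1 and -0.41 to 0.59 in UTR4, RNA from -0.052 to 0.18 in MRI1 and -0.14 to 0.28 in UTR4, and efficiency from -0.30 to 0.21 in MEU1, -0.079 to 0.24 in MRI1, -0.50 to 0.50 in UTR4 and -0.28 to 0.47 in ADI1. The log2 rise of the SAM2 to SAM1 ratio ran from 1.24 to 1.43 in footprints and from 1.28 to 1.46 in RNA.

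Over all genes, 2114 were called in footprints, 1203 in RNA and 98 in efficiency. Footprint calls became 1392 without footprint replicate 2 at 0 µM, and RNA calls 669 without RNA replicate 2 and 771 without RNA replicate 1, both at 10 µM. Efficiency calls became 295 with the replicate block and ran from 20 to 151 over single omissions. With library totals, efficiency calls split into 36 higher and 83 lower. MDE1, UTR4, ADI1 and SAM4 have at most 211 RNA reads in a library, which limits their precision.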
